A study of Sus scrofa with 21 samples.

Results

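The small heat shock proteins are a family of chaperones built around an alpha-crystallin domain. The 7 family genes considered here were CRYAB, HSPB1, HSPB2, HSPB3, HSPB6, HSPB7 and HSPB8. They were chosen by name for their place in this family, though with earlier results of these data known. Of the 7, 6 had a row under that symbol among the 25880 genes of the deposited count table. HSPB2 had no row by that name and was not analysed here. Each of the 6 symbols had a single row, and all 6 passed the filter on low counts that left 15359 genes to test.

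RNA was sequenced from heart tissue of 21 neonatal pigs, 1 library per pig. Myocardial infarction (MI) was made on postnatal day 1 by a lasting tie of the left descending coronary artery, and hearts were taken on day 7 (n = 3), day 14 (n = 3) or day 28 (n = 2), with RNA from the border zone of the ischaemic area. Control hearts, called naive in the sample titles, were taken on day 1 (n = 2), day 3 (n = 2), day 7 (n = 3), day 14 (n = 3) and day 28 (n = 3), with RNA from the corresponding region, and the labels' protocol describes age-matched pigs operated on without the tie. No allele, transgene or drug is named in the labels, all pigs came from 1 supplier and were raised on colostrum and milk, and the sex or litter of a pig is not given in the sources used here. Separate pigs make the libraries biological replicates, but groups of 2 or 3 pigs allow little precision. Total counts per library were 37002909 to 95559841. Across groups, 4 libraries stood apart from the other 17 by under 100 CPM (counts scaled to the size of the library) of the gene ENSSSCG00000035520: replicate 3 of MI day 7, replicate 2 of MI day 28, replicate 3 of naive day 14 and replicate 2 of naive day 28. For the 6 family genes, values without these libraries are given beside the results of each day. As a check of the tissue, the cardiomyocyte marker TNNT2 was at 3461 to 8996 CPM in the 21 hearts, while TNNI3, another marker of these cells, had a row that did not pass the filter.

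Small heat shock proteins bind unfolding proteins without using ATP and hold them in a state from which ATP-driven chaperones can refold them or hand them on for degradation. Heart and skeletal muscle make more family members than most tissues, and there the proteins bind the filaments of the contractile apparatus. CRYAB and HSPB1 are the members best known to be induced by heat and other stress, through heat shock factors that bind heat shock elements in DNA, and inherited changes in CRYAB cause a myopathy with desmin aggregates.

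The genomic sequence before 3 of the genes is shown because it carries the letters of sites of heat shock factors or of muscle transcription factors. No window is reported for CRYAB or HSPB2, so nothing is said here about such sites before them. The windows were read from the RefSeq genome of build Sscrofa11.1, the build named in the submitters' processing notes, and are printed 5′ to 3′ on the strand of the gene. In the first, for HSPB1 (before its RefSeq start, chr3:10039522-10039691, minus strand), capitals mark a match to the heat shock element letters GAANNTTC.
HSPB1: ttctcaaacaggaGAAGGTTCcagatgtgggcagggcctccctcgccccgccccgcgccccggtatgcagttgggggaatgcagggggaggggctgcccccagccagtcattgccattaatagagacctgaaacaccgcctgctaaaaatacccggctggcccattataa
The RefSeq model of HSPB1 begins at its start codon, so the 80 bases nearest to it are left out here. The element GAANNTTC reads the same on both strands. Of 19556 RefSeq promoter windows of 250 bases, 5.45% held it, and 10.5% held it or the alternative spacing TTCNNGAA.

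In the next pair, for HSPB7 (chr6:75174919-75175168, minus strand) and HSPB8 (chr14:33639825-33640074, minus strand), capitals mark a match to the site of MEF2, a family of transcription factors of muscle.
HSPB7: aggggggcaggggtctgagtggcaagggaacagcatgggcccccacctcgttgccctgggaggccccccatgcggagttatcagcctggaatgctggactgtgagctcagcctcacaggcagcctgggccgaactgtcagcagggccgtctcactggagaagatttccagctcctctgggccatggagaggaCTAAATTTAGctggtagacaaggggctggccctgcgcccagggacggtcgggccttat
HSPB8: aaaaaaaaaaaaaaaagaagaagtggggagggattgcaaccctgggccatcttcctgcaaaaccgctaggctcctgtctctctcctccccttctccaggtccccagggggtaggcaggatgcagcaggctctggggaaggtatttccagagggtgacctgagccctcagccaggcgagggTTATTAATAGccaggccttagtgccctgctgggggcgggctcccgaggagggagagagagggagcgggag
Such a match was in 2.55% of the 19556 promoter windows. The windows of HSPB3 and HSPB6 held neither a heat shock element nor a MEF2 site, which says only that these letters are not in those 250 bases. E-box letters, CANNTG on both strands, were in the windows of HSPB1 and HSPB3 and in 61.9% of all promoters. A match describes the letters and is not evidence of binding.

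In Sscrofa11.1, CRYAB (ENSSSCG00000036724) lies at chr9:39638505-39643530 on the minus strand, head to head with HSPB2 at chr9:39640117-39644104 on the plus strand. The RefSeq models of these neighbours share 3414 bases, and 17.3% of the exon bases of CRYAB are also exon bases of HSPB2, with a further gene, C9H11orf1, covering 13.5%. The strand setting of the counting is not given in the sources used here, so part of the CRYAB reads cannot be assigned to CRYAB with certainty. HSPB1 (ENSSSCG00000039962) lies at chr3:10038074-10039441 on the minus strand, HSPB3 (ENSSSCG00000036059), a gene of 1 exon, at chr16:33716458-33717402 on the plus strand, and HSPB6 (ENSSSCG00000023498) at chr6:45181439-45184011 on the minus strand. HSPB7 (ENSSSCG00000037457) lies at chr6:75171507-75174918 and HSPB8 (ENSSSCG00000009844) at chr14:33626125-33639824, both on the minus strand. None of these other 5 genes overlaps another gene in RefSeq. By coding length the 7 family genes are alike, from 453 bases in HSPB3 to 624 bases in HSPB1.

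**Figure D1:**
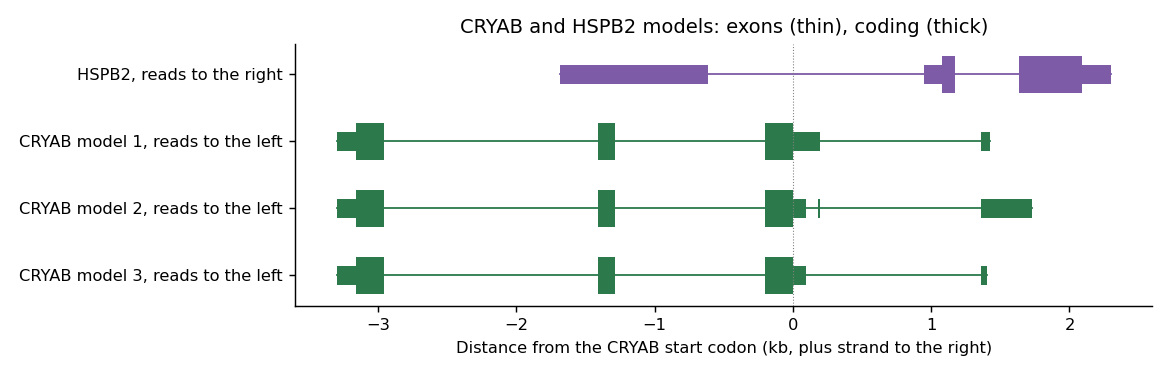
Gene models of CRYAB and HSPB2 in Sscrofa11.1, drawn to scale by distance from the CRYAB start codon in kb, with exons as thin and coding parts as thick bars. The start codons lie 1080 bases apart, and the non-coding first exons of each gene reach into the span of the other.

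Levels differed widely across the family, although those of CRYAB, HSPB1 and HSPB8 lay close to one another. HSPB7, a filamin-binding chaperone of heart and skeletal muscle, had the highest CPM of the family in 21 of 21 libraries, from 702 to 1869.6, and took 52.3% to 73.1% of the family's summed CPM. HSPB8, the partner of the co-chaperone BAG3, was at 207 to 489 CPM, CRYAB at 102 to 355 CPM and HSPB1 at 118 to 306 CPM. HSPB3, a muscle member that forms complexes with HSPB2, was at 45.7 to 73.5 CPM. HSPB6, a chaperone of smooth and heart muscle that cyclic-nucleotide kinases phosphorylate, was lowest in 21 of 21 libraries, at 0.445 to 3.75 CPM, which is 18 to 251 reads. These are the counts of its row, and whether that row takes in all reads of the gene was not tested. The other 5 genes had at least 2039 reads in every library, so counting error weighs on HSPB6 far more than on the rest.

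Divided by the spliced length of the longest RefSeq model, the median level over the 21 libraries was 991 CPM per kb for HSPB7, 322 for HSPB1, 227 for CRYAB, 153 for HSPB8, 65.8 for HSPB3 and 1.01 for HSPB6. On this scale HSPB8 falls behind HSPB1 and CRYAB. The HSPB1 model holds only its coding sequence, which raises its value per kb if reads outside that sequence were counted. The annotation release used for counting is not given in the sources used here, so the counted genes may differ in length from these models. The range over the 21 libraries was narrowest for HSPB3, whose highest CPM was 1.61 times its lowest, and widest for HSPB6, at 8.42 times. It was 3.48 times for CRYAB, 2.66 for HSPB7, 2.59 for HSPB1 and 2.37 for HSPB8. Among the 13 naive hearts alone, the range of CRYAB was 1.71 times, and that of HSPB7 was 1.71 times as well.

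**Figure D2:**
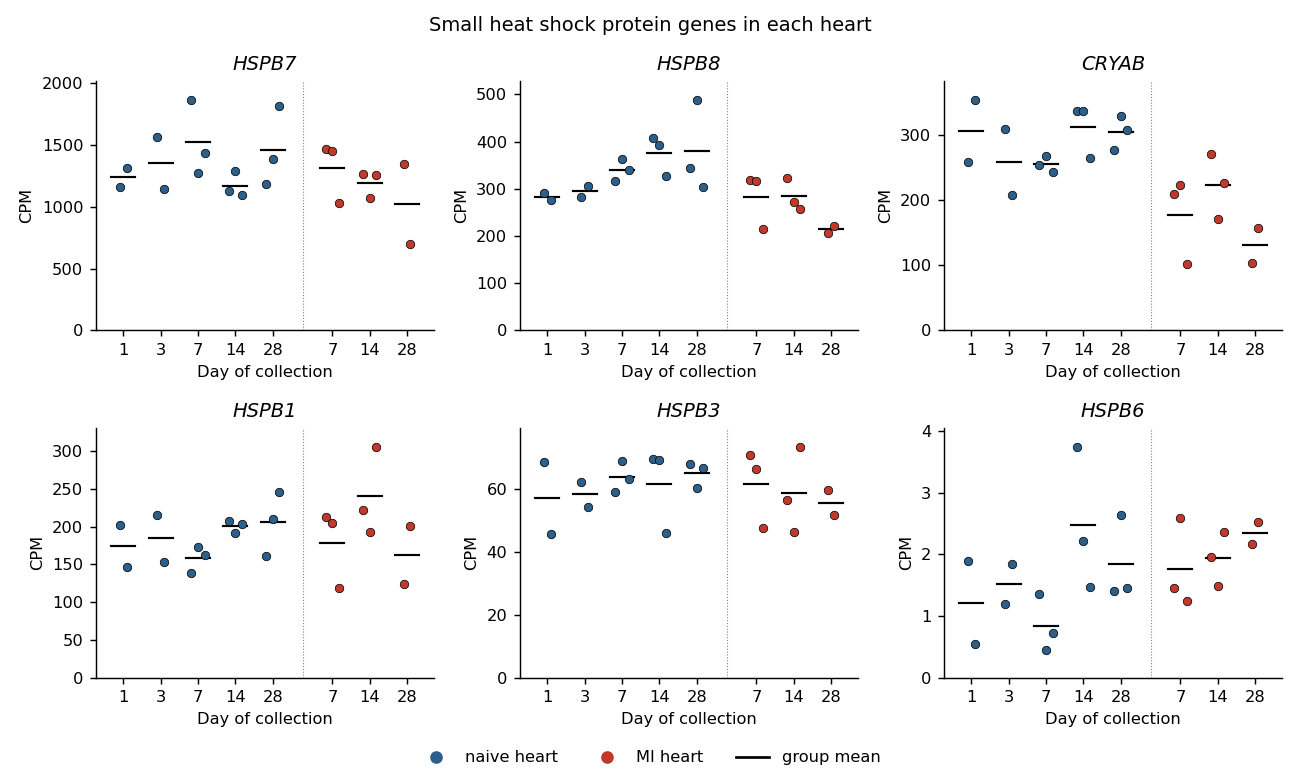
CPM of the 6 genes in each heart by day of collection, with 1 point per pig and a line at the group mean; every axis starts at 0. For CRYAB and HSPB8 the points of MI hearts on day 28 lie below all naive hearts, while the points of HSPB1, HSPB3 and HSPB6 in MI and naive hearts overlap on that day or meet at a narrow gap.

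CRYAB and HSPB8 were lower in infarcted hearts, with the widest difference on day 28, and the other 4 genes were not called. CRYAB, alpha-B-crystallin, holds desmin and titin filaments under strain. On day 28 it was at 104 and 157 CPM in the MI hearts and at 278, 329 and 308 CPM in the naive hearts. Both MI hearts lay below every naive heart of any age, the lowest of which was at 208 CPM. The log2 fold change, MI over naive, was -1.22 (SE 0.31, edgeR adjusted p = 0.0324), so the level fell by 57.2%. In tissue RNA, fewer cells of a type and less RNA per cell cannot be told apart.

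HSPB8, which with BAG3 passes damaged filamin to autophagy, was at 207 and 222 CPM in the MI hearts on day 28. The naive hearts of that day were at 345, 489 and 305 CPM, and the lowest naive heart of any age was at 275 CPM. The groups did not overlap, and the log2 fold change was -0.82 (SE 0.22, edgeR adjusted p = 0.0382), so the level fell by 43.5%. On this day 2 of 6 family genes were called lower and 0 higher, while of all tested genes 6.86% were called, 2.38% as lower and 4.47% as higher. In 3 of the 6 (CRYAB, HSPB8 and HSPB3) both MI hearts lay below the naive hearts of the day, as in 21.4% of all tested genes, and in CRYAB and HSPB8 they lay below all 13 naive hearts, as in 7.06%.

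The day 28 calls were not stable. CRYAB lost its call in 6 of 12 alternative fits and HSPB8 in 10 of 12, always with the same sign. Without MI replicate 1 the adjusted p was 0.151 for CRYAB and 0.128 for HSPB8, and without MI replicate 2 it was 0.0374 and 0.0890. Without naive replicate 1, 2 or 3 it was 0.0558, 0.0752 and 0.0961 for CRYAB, and 0.0604, 0.123 and 0.0810 for HSPB8. Without the 4 libraries that stood apart, which leaves 1 MI heart on day 28, CRYAB had a log2 difference of -1.48 (adjusted p = 0.0182) and HSPB8 of -0.64 (adjusted p = 0.0936). In the fits that leave a single MI heart on day 28, that heart is assumed to vary like those of the other groups, from which the spread is taken.

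On day 28 the other 4 genes were not called. HSPB7 was at 1346 and 702 CPM in the MI hearts and at 1184, 1388 and 1818 CPM in the naive hearts, a log2 difference of -0.51 (SE 0.29, adjusted p = 0.256). Here the MI hearts disagreed with each other: replicate 1 lay among the naive hearts, and the low one, replicate 2, is 1 of the libraries that stood apart. Without replicate 2 the HSPB7 difference was -0.093, and without replicate 1 it was -1.03 (adjusted p = 0.0639). HSPB1, which caps actin filaments and is phosphorylated under stress, was at 124 and 201 CPM against 162, 210.3 and 246 CPM (-0.35, SE 0.29, adjusted p = 0.460). HSPB3 was at 59.6 and 51.6 CPM against 68.0, 60.3 and 66.5 CPM (-0.22, SE 0.24, adjusted p = 0.567), with a narrow gap between the groups. HSPB6 was at 2.16 and 2.52 CPM against 1.41, 2.64 and 1.46 CPM (0.35, SE 0.56, adjusted p = 0.717). The 95% interval of each of these 4 differences includes 0, and for HSPB7 it runs from -1.12 to 0.09, so a fall as large as that of HSPB8 is not outside it. Leaving out 1 library moved HSPB1 between -0.71 and -0.012, HSPB3 between -0.30 and -0.094 and HSPB6 between 0.19 and 0.73. Without the 4 libraries that stood apart, HSPB7 was at -0.15, HSPB1 at -0.71, HSPB3 at -0.16 and HSPB6 at 0.60, and none was called.

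Averaged over the 3 days on which MI and naive hearts can be compared, the log2 fold change was -0.74 for CRYAB (SE 0.16, edgeR adjusted p = 0.0222) and -0.50 for HSPB8 (SE 0.12, adjusted p = 0.0304). On this scale CRYAB fell by 40.3% and HSPB8 fell by 29.0%. In this average 4.43% of all tested genes were called, 2.07% as lower. HSPB7 (-0.23, adjusted p = 0.381), HSPB3 (-0.11, adjusted p = 0.630), HSPB1 (0.03, adjusted p = 0.929) and HSPB6 (0.35, adjusted p = 0.518) were not called. For HSPB1 the 95% interval of the average difference ran from -0.30 to 0.36. CRYAB kept its call in 23 of 24 alternative fits and lost it without naive day 14 replicate 2 (adjusted p = 0.0533). HSPB8 kept it in 17 of 24, and the 7 losses had adjusted p from 0.0502 to 0.0710: without the 4 libraries that stood apart, and without replicate 3 of MI day 7, replicate 2 of MI day 14, replicate 2 or 3 of naive day 7, or replicate 2 of naive day 14 or 28.

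**Figure D3:**
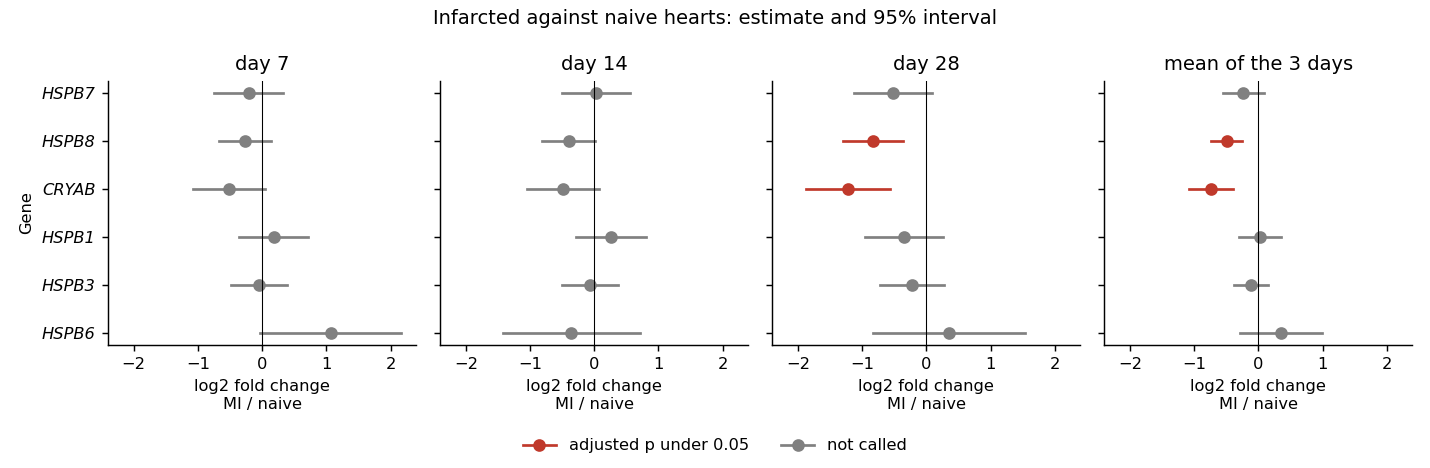
Log2 fold change of MI over naive hearts for the 6 genes on days 7, 14 and 28 and for the mean of the 3 days, with 95% intervals from edgeR. CRYAB and HSPB8 lie left of 0 in all 4 panels and are called (red) on day 28 and in the mean.

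On day 7 none of the 6 genes was called by edgeR, with 0 of them at an unadjusted p under 0.05. Of all tested genes 0% were called and 12.4% were at an unadjusted p under 0.05. CRYAB was at 209, 223 and 102 CPM in MI hearts and at 254, 268 and 243 CPM in naive hearts. The groups did not overlap, as in 10.4% of all tested genes in this direction, and the difference of -0.52 (SE 0.27, adjusted p = 0.443) rested in part on MI replicate 3, 1 of the libraries that stood apart. Without that replicate it was -0.24. HSPB8 was at 318, 317 and 214 CPM against 316, 364 and 339 CPM (-0.26, adjusted p = 0.610), and the same MI replicate was the low one, without which the difference was -0.098. HSPB6 was at 1.45, 2.59 and 1.24 CPM against 1.35, 0.445 and 0.728 CPM, a log2 difference of 1.07 (SE 0.52, adjusted p = 0.416). DESeq2 called 0 of the 6 genes and limma-voom with sample weights called 1, HSPB6, at a log2 difference of 1.46 (adjusted p = 0.0200). Over the 15359 tested genes DESeq2 called 263 and limma-voom 2040 on this day, so the limma-voom call is not particular to HSPB6.

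HSPB1 on day 7 was at 213, 205 and 118 CPM in MI hearts and at 138, 174 and 162 CPM in the naive ones (0.18, SE 0.26, adjusted p = 0.822). Here too MI replicate 3 was low, while the other MI hearts lay above all naive hearts of the day. HSPB7 was at 1467, 1455 and 1032 CPM against 1869.6, 1271 and 1439 CPM (-0.21, adjusted p = 0.781). HSPB3 was at 70.9, 66.3 and 47.5 CPM against 59.1, 68.9 and 63.3 CPM (-0.05, adjusted p = 0.948). Replicate 3 had the lowest value of the 3 MI hearts of day 7 in all 6 genes. Without it HSPB1 was at 0.40, HSPB7 at -0.063, HSPB3 at 0.11 and HSPB6 at 1.26 on the log2 scale, none of them called.

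On day 14 edgeR, DESeq2 and limma-voom each called 0 of the 6 genes, and 0 were at an unadjusted p under 0.05 with edgeR, against 0% and 5.35% of all tested genes. HSPB8 was at 324, 272 and 258 CPM in MI hearts and at 407, 393 and 327 CPM in naive hearts. These groups were separate, as in 4.49% of tested genes in this direction, by the narrow gap between 324 and 327 CPM. For HSPB8 the log2 difference was -0.40 (SE 0.19, adjusted p = 0.953). CRYAB was at 271, 172 and 227 CPM against 338, 338 and 264 CPM (-0.49, SE 0.27, adjusted p = 0.998), and 1 MI heart lay above the lowest naive heart. HSPB1 was at 222, 193 and 306 CPM against 207, 192 and 204 CPM (0.26, SE 0.26, adjusted p = 0.999), and its highest value of the 21 libraries was in MI replicate 3.

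The remaining genes were not called on day 14 either. HSPB7 was at 1264, 1070.1 and 1259 CPM against 1125, 1294 and 1096 CPM, a log2 difference of 0.03. HSPB3 was at 56.4, 46.5 and 73.5 CPM against 69.5, 69.2 and 45.9 CPM (-0.07), so that both groups spanned nearly the same range. HSPB6 was at 1.95, 1.48 and 2.36 CPM against 3.75, 2.21 and 1.46 CPM (-0.36, SE 0.51). None of these 3 had an adjusted p under 0.999, and the interval of HSPB6, from -1.42 to 0.71, is wide. Naive replicate 3 is 1 of the libraries that stood apart. Without the 4 such libraries the day 14 differences were -0.58 for CRYAB, -0.47 for HSPB8, 0.29 for HSPB1, -0.22 for HSPB3, -0.61 for HSPB6 and 0.0044 for HSPB7, and none was called.

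The mean of CRYAB and of HSPB8 was lower in MI than in naive hearts on each of the 3 days, a pattern shared by 16.4% of all tested genes. Whether the MI difference changed with time was tested directly. From day 7 to day 28 the change of the difference was -0.71 (SE 0.40, adjusted p = 0.346) for CRYAB and -0.56 (SE 0.29, adjusted p = 0.306) for HSPB8, and it was below 0 in all 6 genes, with 0 called by edgeR, DESeq2 or limma-voom, 0 at an unadjusted p under 0.05. Of all tested genes 0.013% were called and 19% were at an unadjusted p under 0.05. A wider fall on day 28 than on day 7 is not shown by this test. From day 7 to day 14 edgeR, DESeq2 and limma-voom likewise called 0 of the 6 changes, with 0 at an unadjusted p under 0.05 in edgeR. Of all tested genes 0.00651% were called and 7.07% were at an unadjusted p under 0.05.

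Ordered by group mean, CRYAB ran from 313 ± 42.5 CPM (SD, n = 3) in naive hearts of day 14, through 307 ± 67.4 (n = 2) on day 1, 305 ± 25.6 (n = 3) on day 28, 259 ± 72.3 (n = 2) on day 3 and 255 ± 12.6 (n = 3) on day 7, to the MI hearts at 223 ± 49.6 (n = 3) on day 14, 178 ± 66.3 (n = 3) on day 7 and 131 ± 37.1 (n = 2) on day 28. The 3 MI groups took the lowest places. Neighbours in this order did not differ by more than the larger SD of the pair, though some differed by more than the smaller SD. The naive and MI groups meet between 255 and 223 CPM. HSPB8 was ordered otherwise, with the naive hearts of day 1 among the MI groups and those of day 3 next above them. Its means were 379.5 ± 97.0, 375 ± 42.7 and 339.8 ± 23.8 CPM in naive hearts of days 28, 14 and 7, 294 ± 16.0 and 283 ± 10.8 CPM in naive hearts of days 3 and 1, and 285 ± 34.6, 283 ± 59.4 and 214 ± 11 CPM in MI hearts of days 14, 7 and 28. Thus the MI means of days 7 and 14 lay at the level of naive hearts of days 1 and 3, and that of day 28 lay below it. Of neighbours in this order, the groups at 339.8 and 294 CPM and those at 283 and 214 CPM differed by more than either SD, and the others did not.

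Among naive hearts, the 6 genes showed no called difference with age. An edgeR test of any difference among days 1, 3, 7, 14 and 28 called 0 of the 6, and the same holds for DESeq2 and limma-voom. Their unadjusted p ran from 0.0840 for HSPB6 to 0.917 for HSPB3, while 4.32% of all tested genes were under 0.05 and 0% were called. From day 1 to day 28 the log2 fold change was 0.42 for HSPB8 (SE 0.22, adjusted p = 0.867), with no overlap of the groups, as in 12.6% of tested genes in this direction. It was 0.24 for HSPB1 and for HSPB7, 0.19 for HSPB3, 0.59 for HSPB6 and -0.01 for CRYAB, whose naive means of days 1 and 28 were 307 and 305 CPM. In single steps of age, HSPB6 was at 3.75, 2.21 and 1.46 CPM on day 14 against 1.35, 0.445 and 0.728 CPM on day 7, a log2 difference of 1.56 (SE 0.53, edgeR adjusted p = 0.404). The groups did not overlap, as in 10.1% of tested genes in this direction, and limma-voom with sample weights called HSPB6 at 1.61 (adjusted p = 0.0232). In this step limma-voom called 918 of the 15359 tested genes.

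CRYAB and HSPB1, the stress-inducible members, parted in infarcted hearts. The ratio of CRYAB to HSPB1 CPM within a library was 0.985, 1.09 and 0.864 in MI hearts on day 7, 1.22, 0.889 and 0.741 on day 14, and 0.845 and 0.782 on day 28. In naive hearts it ran from 1.25 to 2.41 with a median of 1.55. All 8 MI hearts, with a median of 0.877, lay below all 13 naive hearts, by the narrow gap between 1.22 and 1.25. Of the 15 ratios between 2 of the 6 genes, this was the 1 that separated MI from naive hearts without overlap. It was singled out after its values were seen, so it is a description without a test. Of the 15358 tested genes other than HSPB1 set against HSPB1 in the same way, 4 (0.026%) were below in all MI hearts. CRYAB was the most abundant of them, the others being HR, C5orf63 and COCH. HSPB1 was picked along with the ratio and no other denominator was counted over all genes, so this share does not measure how rare such a separation is.

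**Figure D4:**
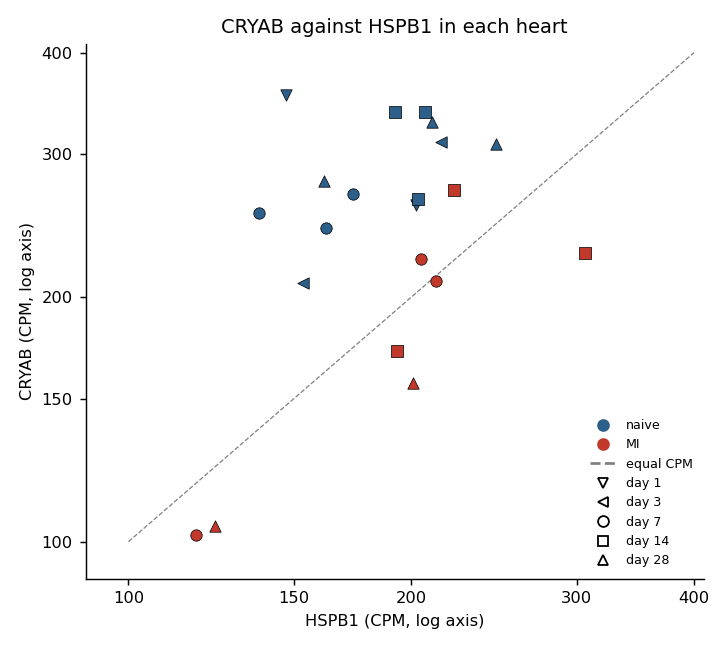
CPM of CRYAB against CPM of HSPB1 in each of the 21 hearts, on log axes, with the dashed line at equal CPM. Naive hearts (blue) lie above the line at ratios of 1.25 to 2.41, and MI hearts (red) lie near or below it at 0.741 to 1.22.

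Across the 21 libraries, which share group differences and library effects, log2 CPM of CRYAB and HSPB8 correlated at Pearson r = 0.77 (Spearman rho = 0.61). Of the 15 pairs of family genes this was the 1 with r over 0.5. The next was CRYAB with HSPB1 at 0.47, the lowest was HSPB6 with HSPB7 at -0.23, and the median was 0.33. Without the 4 libraries that stood apart, CRYAB and HSPB8 correlated at 0.68, and among the 13 naive hearts alone at 0.30. These correlations describe the libraries and carry no p.

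The genes whose log2 CPM was most like that of a family member over the 21 libraries were, for CRYAB, CSRP3 (r = 0.87), a Z-disc LIM protein of cardiomyocytes, MMP15 (0.87), a membrane-bound metalloproteinase, and OLFML2A (0.86). For HSPB8 they were RNF7 (0.89), a RING subunit of ubiquitin ligases, MYL2 (0.83), the ventricular myosin regulatory light chain, and CKS1B (0.83), a cyclin-dependent kinase subunit. HSPB1 was nearest to PSME3 (0.82), a proteasome activator, PPID (0.80), a cyclophilin that binds HSP90, and DNAJA1 (0.79), an HSP40 co-chaperone. HSPB7 was nearest to PSMD6 (0.87), a proteasome subunit, PPP2R1A (0.86), a scaffold of protein phosphatase 2A, and SF3A2 (0.85), a splicing factor. HSPB3 was nearest to NSMCE4A (0.82), POLN (0.78) and ABT1 (0.75). HSPB6 was nearest to DENND6B (0.87), IMPDH2 (0.87) and ZC3H18 (0.85), at levels where its own counts are few. The 6 sets of nearest genes had no gene in common.

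Cardiomyocytes make several of these chaperones, and their markers moved with the day 28 result. Of 10 cardiomyocyte markers 9 were tested, and their summed CPM was 39423 to 48086 in MI hearts and 76877 to 89685 in naive hearts of day 28. On day 7 the sums overlapped, with 71092 to 77231 in MI hearts and 68037 to 79596 in naive hearts, and on day 14 they did so too, with 52332 to 74726 against 63787 to 101632. On day 28, 3 of the 9 were called lower (CSRP3, ACTC1 and MYL2) and 0 higher, as in the fit without the 4 libraries that stood apart. The calls were lost in 4 of 12 alternative fits for CSRP3, 6 for ACTC1 and 8 for MYL2. Limma-voom called 0 of the 9, and only 46 of the 15359 tested genes. The median log2 fold change of the 9 was -0.88, against 0.00 over all tested genes and -0.43 over the 6 family genes. CSRP3, the gene most like CRYAB, was at 138 and 251 CPM in MI hearts against 594, 522 and 733 CPM (-1.67, SE 0.33, adjusted p = 0.0170), and at -2.26 without the 4 libraries. MYL2, among those most like HSPB8, had a log2 difference of -1.29 (adjusted p = 0.0409).

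Set against the mean log2 CPM of those 9 markers in the same library, CRYAB lay at -4.42 (replicate 1) and -3.65 (replicate 2, which stood apart) in MI hearts of day 28 and at -3.84 to -3.75 in naive hearts, with 1 MI heart below and 1 above the naive range. In the same order HSPB8 lay at -3.43 and -3.15 against -3.77 to -3.19, so 1 MI heart was within the naive range and 1 above it. Relative to the markers, neither gene was lower in both MI hearts of day 28. The markers include CSRP3 and MYL2, which were called lower on that day and were among the genes most like CRYAB and HSPB8. The part of cardiomyocyte content in the levels of CRYAB and HSPB8 was not tested. On day 7, when the marker sums overlapped, CRYAB relative to the markers was at -5.11 to -4.04 in MI hearts and at -3.99 to -3.63 in naive hearts. The groups did not overlap, but the lowest value was that of MI replicate 3, which stood apart, and the other MI hearts, at -4.14 and -4.04, lay close to the naive range. HSPB8 relative to the markers overlapped on day 7, at -4.04 to -3.53 against -3.57 to -3.19, and on day 14, at -3.71 to -3.24 against -3.78 to -2.97. On day 14 CRYAB was at -3.90 to -3.81 against -4.08 to -3.24. The mean log2 level of the markers correlated over the 21 libraries at r = 0.62 with CRYAB, 0.65 with HSPB8, 0.53 with HSPB7, 0.25 with HSPB3, 0.20 with HSPB1 and -0.12 with HSPB6.

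**Figure D5:**
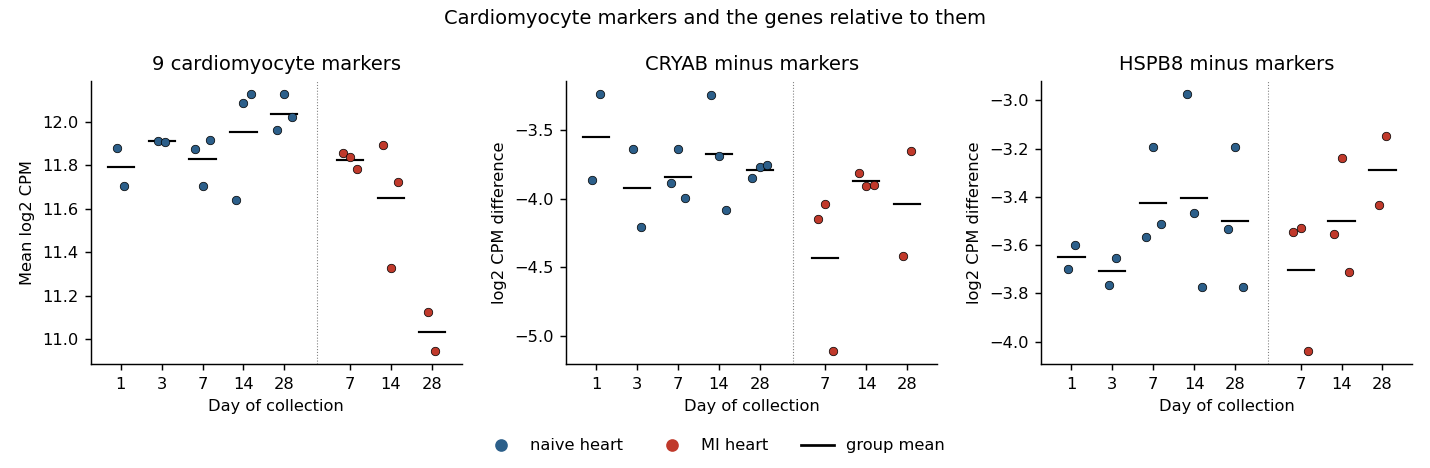
Mean log2 CPM of 9 cardiomyocyte markers in each heart (left) and the log2 CPM of CRYAB and HSPB8 minus that mean (centre and right), by day of collection, with a line at the group mean. The markers are lowest in the MI hearts of day 28, where CRYAB and HSPB8 relative to them lie within or on both sides of the naive values or above them.

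Markers of other cells also moved on day 28. Of 8 macrophage markers 6 were called higher in MI, with summed CPM of 271 to 2884 in MI hearts against 59.8 to 312. Of 6 smooth muscle markers 4 were called higher (286 to 1057 against 242 to 503 CPM), of 7 fibroblast markers 1 (1279 to 11637 against 1618 to 3323 CPM) and of 4 tested adipocyte markers 2 (142 to 641 against 132 to 244 CPM). EdgeR called 0 of 5 endothelial, 5 erythroid, 4 tested atrial and 2 tested skeletal muscle markers, with 1 endothelial marker and none of the others at an unadjusted p under 0.05, and DESeq2 and limma-voom called 0 as well. Limma-voom called 0 markers of any of these cell types on day 28, when it called only 46 of the 15359 tested genes. In MI replicate 2, which stood apart, macrophage and fibroblast markers summed to 2884 and 11637 CPM. In replicate 1 they summed to 271 and 1279 CPM. Smooth muscle and adipocyte markers were high in replicate 1 instead, at 1057 and 641 CPM. In replicate 2 they summed to 286 and 142 CPM, within the naive ranges. The fit without the 4 libraries keeps only MI replicate 1 on day 28, so it cannot show whether a rise holds in both MI hearts. The part of these cell types in the levels of the chaperones was not tested.

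Heat shock factors drive the stress-induced members. Of 6 tested factors and regulators, 1 was called on day 28: HSF4, a factor best known from the lens, where it controls crystallin genes. It rose to 13.7 and 14.8 CPM in MI hearts from 2.19, 2.69 and 1.96 CPM in naive hearts, a log2 difference of 2.65 (SE 0.56, edgeR adjusted p = 0.0204), and no other heart had more than 7.17 CPM. In the mean of the 3 days its log2 fold change was 1.47 (adjusted p = 0.0192). The call of day 28 was lost in 5 of 12 alternative fits, with adjusted p up to 0.0916, while the sign was kept. Without the 4 libraries that stood apart HSF4 was at 2.74 (adjusted p = 0.0597) on day 28 and at 1.52 (adjusted p = 0.0640) in the mean. HSF1, the main factor of the heat shock response, was at 12.6 to 16.8 CPM in MI hearts and 15.1 to 18.3 CPM in naive hearts (log2 difference -0.19, adjusted p = 0.604). HSF2 had a log2 difference of -0.69 (adjusted p = 0.133), and of -0.41 without MI replicate 2.

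Of 14 heat-inducible chaperones outside the family, 13 had a row and were tested. On day 28, 1 was called lower and 0 higher, where 6.86% of all tested genes were called, 2.38% as lower. The median log2 fold change of the 13 was -0.39. The called gene was HSPD1, the mitochondrial chaperonin, at 141 and 145 CPM in MI against 268, 255 and 437 CPM in naive hearts (log2 difference -1.16, SE 0.30, adjusted p = 0.0329). It lost the call in 8 of 12 alternative fits, leaving out any of the 5 libraries of the comparison among them, and was at -1.31 (adjusted p = 0.0713) without the 4 libraries that stood apart. In the mean of the 3 days the same gene was called (-0.57, adjusted p = 0.0462), and that call was lost in 21 of 24 alternatives. DNAJB1, an HSP40 that heat induces, was at 0.08 and HSP90AA1, the inducible HSP90, at -0.51 on day 28, neither called. On days 7 and 14 edgeR, DESeq2 and limma-voom each called 0 of the 13, with 0 at an unadjusted p under 0.05 in edgeR.

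HSPB8 works in a complex with BAG3 and HSPA8 that delivers damaged filaments to autophagy. Of 10 genes of this pathway 9 had a row and 8 were tested, and edgeR, DESeq2 and limma-voom each called 0 on any day or in the mean. At an unadjusted p under 0.05 edgeR had 0 on days 7 and 14, 3 on day 28 and 1 in the mean, where all tested genes had shares of 27% on day 28 and 23.1% in the mean. Without the 4 libraries that stood apart edgeR called 2 higher on day 28, SQSTM1 and the autophagosome protein gene MAP1LC3B. The smallest adjusted p on day 28 was that of HSPA8, the constitutive HSC70 (log2 fold change -0.71, adjusted p = 0.149). BAG3 itself had -0.18, and SQSTM1, an autophagy receptor, had 0.72 (adjusted p = 0.165), a value that rested on single hearts: without MI replicate 2 it was 1.33 (adjusted p = 0.0113) and without MI replicate 1 it was -0.22. The median of the 8 was 0.06 on day 28.

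Of 8 cytoskeletal and sarcomere proteins that family members bind, 6 had a row and were tested. On day 28 edgeR called 0, with 3 at an unadjusted p under 0.05 (27% of all tested genes) and a median log2 fold change of -0.62. DESeq2 called 1, VIM, and limma-voom 0, where over all tested genes they called 2205 and 46. DES, the desmin bound by CRYAB, had -0.91 (adjusted p = 0.111), FLNC, the filamin bound by HSPB7 and handled by HSPB8 and BAG3, had -0.55 (adjusted p = 0.375), and VIM, a filament of mesenchymal cells, had 1.5 (adjusted p = 0.0536). With 1 library left out DES ran from -1.16 to -0.38 (without naive replicate 3) and FLNC from -1.07 (without MI replicate 1) to -0.13 (without MI replicate 2). In the mean of the 3 days 1 was called lower, MYOT, a Z-disc protein, at -1.03 (SE 0.26, adjusted p = 0.0400). MYOT was at 50.8 to 61.9 CPM in MI hearts and 97.5 to 166 CPM in naive hearts on day 7, and at 56.2 to 103 against 136 to 233 CPM on day 14. On day 28 the MI hearts were at 79.6 and 94.8 CPM and the naive hearts spread from 63.7 to 219 CPM. This call was lost in 15 of 24 alternative fits.

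Of 8 genes for kinases and a phosphatase subunit that act on small heat shock proteins, all were tested and edgeR called 0 on any day or in the mean. At an unadjusted p under 0.05 it had 1 on day 7, 0 on day 14, 3 on day 28 and 1 in the mean, against 27% of all tested genes on day 28 and 23.1% in the mean. DESeq2 called 1 on day 28, PRKG1, and 0 otherwise, and limma-voom called 0. Over all tested genes DESeq2 called 2205 on day 28. The smallest adjusted p on day 28 was that of PRKG1, a cyclic GMP-dependent kinase that phosphorylates HSPB6, at 0.68 (SE 0.24, adjusted p = 0.0846). MAPKAPK2, the kinase of HSPB1, had -0.56 (adjusted p = 0.168), -0.25 without MI replicate 2 and -0.88 without MI replicate 1. Of 4 other genes that carry the family name or domain, HSPB11, an intraflagellar transport protein, was the 1 tested, at 2.69 to 8.01 CPM and not called in any comparison. HSPB9 and ODF1, known from testis, had rows that did not pass the filter.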

How the data were processed

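The deposited values are unnormalized whole-number counts of reads per gene, which the authors made, per the submitters' processing notes, with Trim Galore for trimming, STAR 2.5.2 for alignment to Sscrofa11.1 and HTSeq 0.6.1 for counting. The notes also name DESeq2. The strand setting is not given in the sources used here, so reads of genes that overlap on opposite strands cannot be told apart.

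The filter filterByExpr (edgeR 4.0.16) kept 15359 of 25880 genes. After TMM scaling, glmQLFit (robust, 13 residual degrees of freedom) was run on all 21 libraries with a mean for each of the 8 groups. Contrasts were tested two-sided with the quasi-likelihood F-test and Benjamini-Hochberg adjustment over all genes tested, and a gene is called at an adjusted p under 0.05. In the text, rises, falls and calls refer to this test unless another tool is named. Log2 CPM for correlations used a prior count of 2. Alternatives were DESeq2 1.42.0, limma 3.58.1 voom with sample weights, relative log expression scaling, no filter beyond 1 count, a fit to the compared groups, leaving out each library, and the 4 libraries that stand apart left out or given a model term. The fit was tested on simulated data. R 4.3.3, pysam 0.24.0 and matplotlib 3.10.9 were used.

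The members, pathway lists, markers and tests were chosen with earlier results of these data known. Named genes are all members, up to 4 called genes per pathway list with the smallest adjusted p (or the 1 with the smallest where none is called) and the 3 genes most like each member by Pearson r; other genes of the lists named in the text were chosen after their values were seen. Sequences and gene models are from RefSeq, build Sscrofa11.1. Motifs were searched on both strands.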

Additional observations from a re-analysis of the deposited data

How the results depend on the processing

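Of 997 alternative values of the genes named above, 843 kept their sign and their side of the threshold, 110 lost a call, 10 gained one and 34 changed sign. This tally leaves out 395 alternative values of the family genes for differences that are not printed, between naive ages or from day 7 to day 14. Of those 395, 339 kept their sign and 56 changed it, with 0 called. No paired analysis was possible because the replicate numbers only follow the order of deposit and the labels tie no pig to another. On day 28 the count of family genes called lower, 2 as reported, was 1 with every gene of at least 1 count tested, 1 without the 4 libraries that stand apart, 1 with a term for them, 0 by voom and 0 in a fit to the compared groups, and 0 to 1 when 1 library was left out. In the mean of the 3 days it was 1 without the 4 libraries and 0 to 2 when 1 library was left out. Voom called 1 gene, HSPB6, on day 7 and between naive days 14 and 7, in place of 0. Over all genes voom called 2040 on day 7 and 918 between those naive days. DESeq2 and relative log expression scaling kept both counts of 2.

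The changes of sign were in differences that were not called as reported. With voom, HSPB3 on day 7 was at 0.056 and HSPB7 on day 14 at -0.033 and DNAJB1 on day 28 at -0.072. Without the 4 libraries, HSPB3 on day 7 was at 0.061 and HSPB1 in the mean at -0.022, and on day 28 HSF1 was at 0.023, DNAJB1 at -0.12 and BAG3 at 0.00066. With a term for them, HSPB3 on day 7 was at 0.057, HSPB7 on day 14 at -0.10 and CRYAB between naive days 28 and 1 at 0.062. With 1 library left out, HSPB1 in the mean ran from -0.10 to 0.14, HSPB3 from -0.16 to 0.11 on day 7 and from -0.26 to 0.079 on day 14, HSPB7 from -0.012 to 0.11 and HSPB6 from -0.63 to 0.11 on day 14. Between naive days 28 and 1, CRYAB ran from -0.22 to 0.23, HSPB3 from -0.078 to 0.51 and HSPB6 from -0.043 to 1.76, and the change of the HSPB7 difference from day 7 to 28 ran from -0.79 to 0.15. On day 28, HSF1 ran from -0.38 to 0.032, DNAJB1 from -0.29 to 0.42 and SQSTM1 from -0.22 to 1.33. The cause was not tested. Over all genes, with 1 naive heart of day 28 left out, the day 28 calls ran from 17 (without replicate 3) to 314 (without replicate 1). With 1 library left out, those of the mean ran from 186 (without naive day 14 replicate 2) to 1082 (without MI day 14 replicate 1). The spread over tools was wider. On day 28 a fit to the compared groups called 2, voom 46 and DESeq2 2205, and in the mean DESeq2 called 1639. The counts of HSPB6, 18 to 251 reads, limit its precision.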
